A study of Mus musculus with 7 samples.

Results

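Polyamine metabolism was followed through 10 genes, Odc1, Oaz1, Oaz2, Azin1, Amd1, Srm, Sms, Sat1, Paox and Smox, chosen by name. Probes that carried a member's symbol as their gene name were taken, which gave 21 of the 56605 probes on the array, for 9 of the 10 genes. No probe was named Amd1. Mammary gland RNA from 3 wild-type and 4 PRA transgenic FVB mice was labeled with Cy5 and hybridized, 1 animal per array, together with a Cy3-labeled common reference, Universal Mouse Reference RNA, which pools 11 cell lines. All animals were nulliparous females of 20 to 25 weeks in diestrus, and 1 abdominal gland was taken from each after its lymph node had been removed. The transgenic mice carried CMV-GAL-4, in which a CMV promoter drives the yeast activator GAL-4, together with UAS-PR-A, an additional copy of the A form of the progesterone receptor, and the CMV promoter is not specific to mammary epithelium. The dyes were never swapped, and so a level above or below the reference cannot be told apart from dye bias. Wild-type arrays occupied row 1 of the single slide and PRA transgenic arrays row 2, and row and genotype cannot be told apart.

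Polyamines are small, positively charged molecules that bind nucleic acids and are needed for translation and cell growth. Ornithine decarboxylase, the product of Odc1, makes putrescine, and spermidine synthase (Srm) and spermine synthase (Sms) extend it with aminopropyl groups supplied through the product of Amd1. Antizymes (Oaz1 and Oaz2) bind ornithine decarboxylase and send it to the proteasome, and the antizyme inhibitor (Azin1) releases it. Spermidine/spermine acetyltransferase (Sat1), polyamine oxidase (Paox) and spermine oxidase (Smox) run the pathway backward. Odc1 is a classic target of growth signals and steroid hormones.

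The values below are log2 ratios of gland to reference (processed Cy5 over processed Cy3), and fold changes are PRA transgenic minus wild-type on that log2 scale. A probe was kept if all wild-type arrays, or all PRA transgenic arrays, had Cy5 well above background, and p-values are from limma over the 34284 kept probes, with Benjamini-Hochberg adjustment. Of the 21 member probes 20 were kept, and on those both dyes were well above background on all 7 arrays. The probe left out was A_55_P2739455 of Oaz2 (chr9:65534090-65534149), where neither dye rose well above background on any of the 7 arrays.

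The Odc1 probes A_52_P436238 and A_55_P1995173 gave log2 fold changes of 0.59 and 0.23, with limma intervals that overlapped. Whether the sequence that each probe reads plays a part in this was not tested. Of this pair, only the sequence of A_52_P436238 is printed. Each of the 60-base probes below is free of stop codons in at least 1 of the 3 frames, and they are shown because they locate the part of the transcript behind the values of Odc1, the antizymes, Srm and the oxidases. Coordinates are those of the files, on mm9, and each sequence is written 5′ to 3′ in lower case on the plus strand.
Odc1, A_52_P436238, chr12:17554799-17554858: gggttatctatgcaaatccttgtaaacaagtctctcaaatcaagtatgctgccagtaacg
Srm, A_66_P113076, chr4:147967990-147968049: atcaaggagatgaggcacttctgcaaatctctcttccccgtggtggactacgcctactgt
Srm, A_55_P2002376, chr4:147968254-147968313: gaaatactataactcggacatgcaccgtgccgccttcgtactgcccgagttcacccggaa
Oaz1, A_52_P461292, chr10:80291216-80291275: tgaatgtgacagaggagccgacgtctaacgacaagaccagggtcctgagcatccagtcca
Oaz2, A_52_P90289, chr9:65535779-65536685: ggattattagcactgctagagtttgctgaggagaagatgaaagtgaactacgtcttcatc
Paox, A_55_P2749859, chr7:147314941-147315000: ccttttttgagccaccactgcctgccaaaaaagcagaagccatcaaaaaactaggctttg
Smox, A_66_P107703, chr2:131347853-131347912: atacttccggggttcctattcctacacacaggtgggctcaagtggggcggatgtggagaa
The 60 bases of the Oaz2 probe span 907 bases of the genome, so this probe reads across a splice junction.

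Among the 20 kept probes, 1 of Odc1 was higher and 1 of Sat1 lower in PRA transgenic glands at an unadjusted p under 0.05 with a change of at least 1.5-fold. Over all kept probes 4.52% met that rule, 1.94% higher and 2.58% lower, and 4.03% to 6.80% met it with 1 array left out, the most without PRA transgenic replicate 4. At an unadjusted p under 0.05 alone the members gave the same count of 2, against 9.02% of all kept probes, and on 2 of 20 the genotypes did not overlap, against 9.93%, a share near the background. No member probe passed an adjusted p of 0.05 in limma, with a lowest adjusted p of 0.453, while 0.0117% of all kept probes did. Those were 4 probes, a number that ran from 1 without PRA transgenic replicate 3 and 2 without wild-type replicate 3 to 12 without PRA transgenic replicate 4. The methods' t-test gave 2 member probes at an unadjusted p under 0.05, beside 9.21% of all kept probes, and 0 after adjustment, beside 0.00292%. The log2 fold change was above 0 on 12 of the 20 probes, beside 54.2% of all kept probes. The median over the 20 probes was 0.10, beside 0.02 over all kept probes. Leaving out 1 array at a time, the count at p under 0.05 and 1.5-fold was 1 without wild-type replicates 1, 2 or 3 or PRA transgenic replicates 1 or 2, and 0 without PRA transgenic replicate 3.

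**Figure D1:**
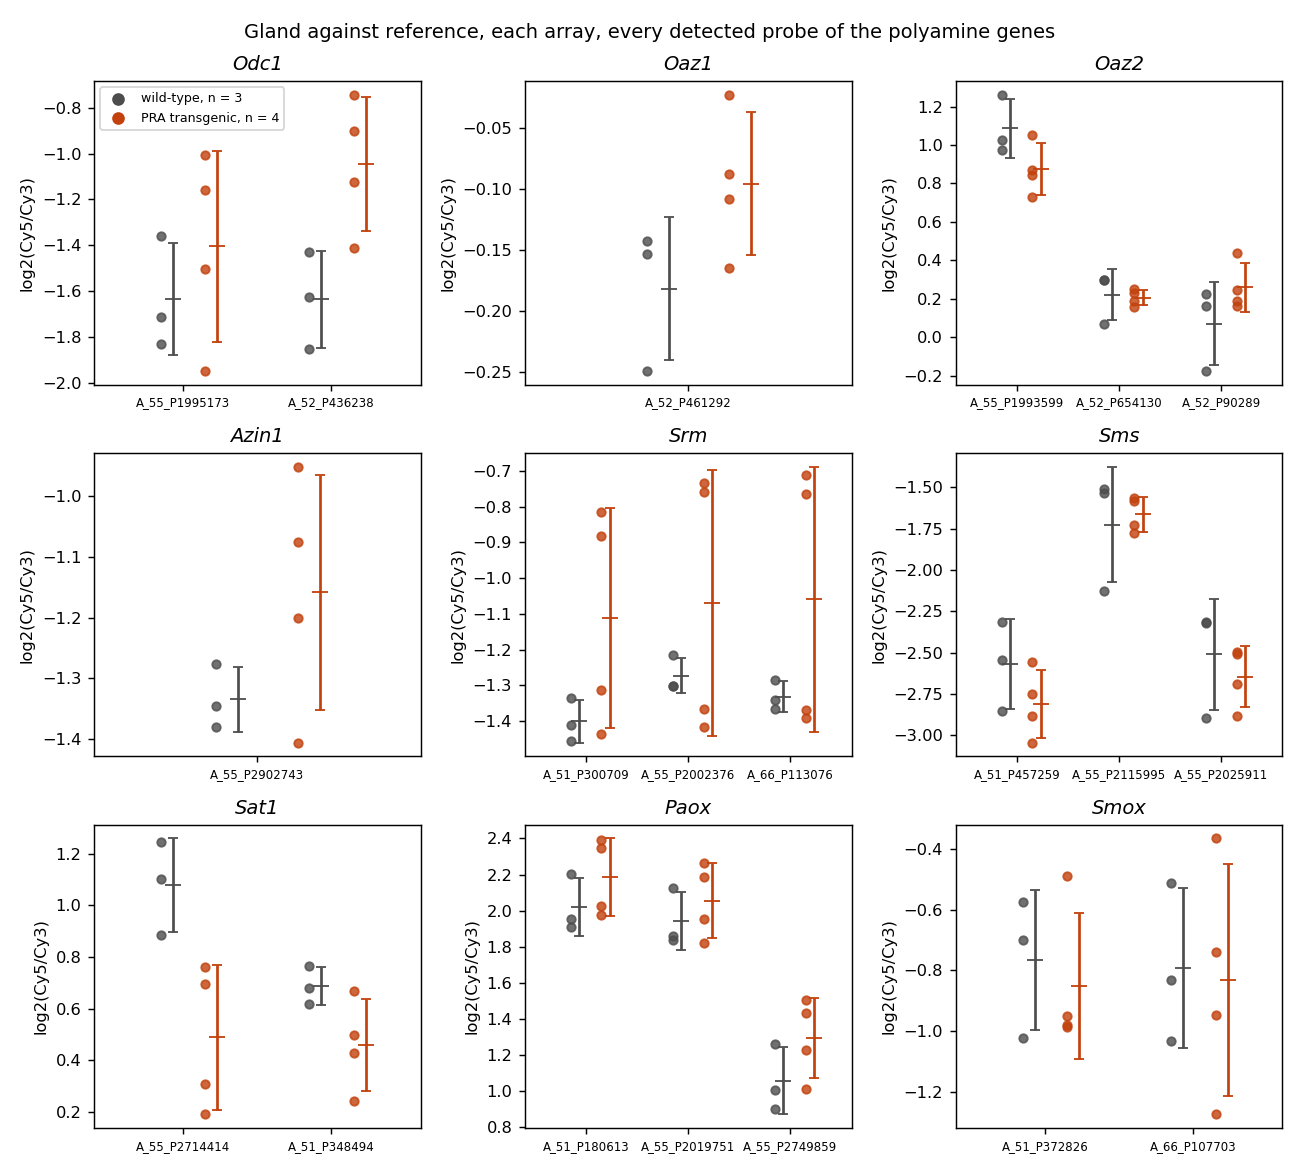
Log2 ratio of gland (Cy5) to reference (Cy3) on each array for the 20 kept probes of 9 genes, with wild-type in grey (n = 3) and PRA transgenic in orange (n = 4). Horizontal marks and bars are the mean and SD, and each panel has its own vertical range; the genotypes are separated at A_52_P436238 of Odc1 and A_55_P2714414 of Sat1, and overlap at the other 18 probes.

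Odc1, which encodes the enzyme of the first committed step, was below the reference on all 7 arrays with both probes. At A_52_P436238 the wild-type replicates 1, 2 and 3 had log2 ratios of -1.63, -1.85 and -1.43, and the PRA transgenic replicates 1, 2, 3 and 4 had -1.13, -0.74, -0.90 and -1.41. All 4 PRA transgenic arrays lay above all 3 wild-type arrays, but replicate 4 exceeded the highest wild-type array only narrowly. The means were -1.64 ± 0.21 (SD, n = 3) and -1.05 ± 0.29 (SD, n = 4). The difference of 0.59 on the log2 scale (SE 0.19, 95% interval 0.13 to 1.04, adjusted p = 0.462 in limma) was a change of 1.50-fold, just past the threshold on size. The two-sided exact permutation test gave p = 0.0571, and the smallest p that 3 arrays against 4 allow is 0.0286. With wild-type replicate 2 left out it was 0.48 (adjusted p = 0.69 in limma) and its unadjusted p was no longer under 0.05. With each array centered on its median it was 0.56 and with normexp and loess 0.52, both under 1.5-fold, and in the first of these settings the genotypes overlapped. The study lists Odc1 as upregulated among genes from these arrays that earlier work had found to be PR-regulated in human breast cancer cells. The array part of that list rests on these same data, so this difference is not independent evidence for it.

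The brighter Odc1 probe, A_55_P1995173 (chr12:17557831-17557890), starts 3032 bases farther along the gene. There the wild-type arrays had -1.83, -1.71 and -1.36, and the PRA transgenic arrays -1.50, -1.16, -1.01 and -1.95. Replicates 2 and 3 of the PRA transgenic group were the highest 2 arrays, and replicate 4 was the lowest of all 7. The log2 fold change of 0.23 (SE 0.25, 95% interval -0.35 to 0.81, adjusted p = 0.832 in limma) was within the spread between animals. It ran from 0.097 with PRA transgenic replicate 3 left out to 0.41 with PRA transgenic replicate 4 left out, and was 0.13 without wild-type replicate 1, 0.15 without PRA transgenic replicate 2 and 0.37 without wild-type replicate 3. The distance between the probes, the log2 ratio at A_52_P436238 minus that at A_55_P1995173, ran from -0.14 to 0.20 on wild-type arrays and from 0.11 to 0.53 on PRA transgenic arrays, and these ranges overlapped. This comparison was chosen after the values were seen and was not tested.

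In Cy5 alone, taken relative to each array's 75th percentile, A_52_P436238 read -1.05, -1.25 and -0.73 on the log2 scale in wild-type and -0.61, -0.22, -0.37 and -0.82 in PRA transgenic glands. The gland channel differed by 0.51 (adjusted p = 0.527 in limma), and in this channel PRA transgenic replicate 4 lay below wild-type replicate 3, so that the genotypes overlapped. The Cy3 reference differed by -0.08. The reference was the same RNA on every array, yet 10.4% of kept probes differed between the genotypes in Cy3 alone at an unadjusted p under 0.05. In whole-gland RNA fewer cells of a type and less RNA per cell cannot be told apart.

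**Figure D2:**
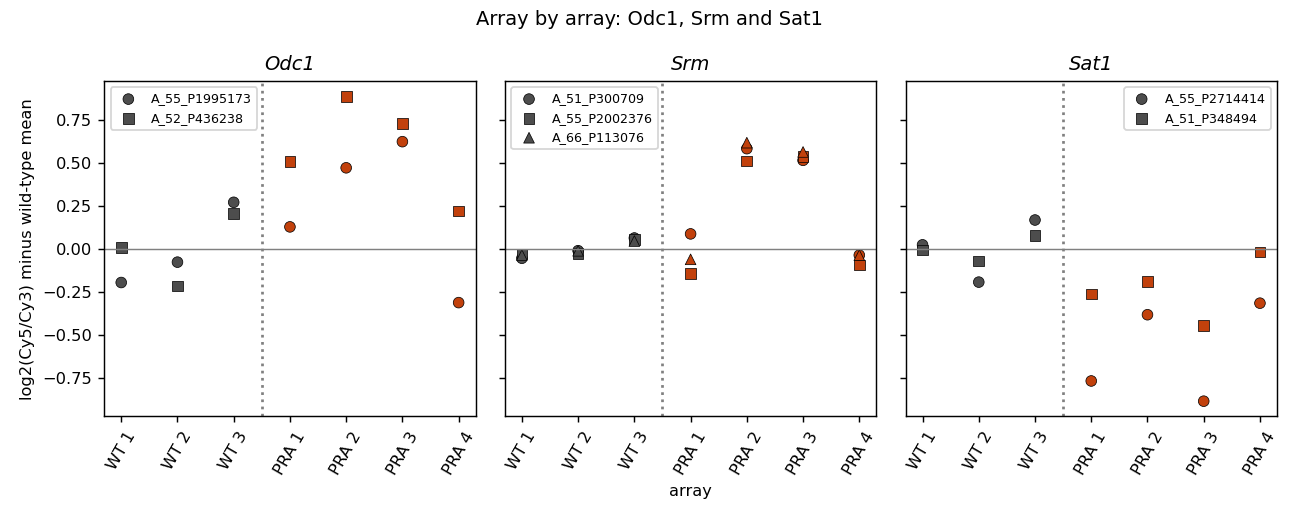
Log2 ratio on each array minus the wild-type mean for every kept probe of Odc1, Srm and Sat1, with wild-type arrays in grey and PRA transgenic arrays in orange and a symbol for each probe. PRA transgenic replicates 2 and 3 are the highest arrays for Srm and Odc1, and PRA transgenic replicates 1 and 3 are the lowest for Sat1.

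Srm, encoding spermidine synthase, was close to uniform in wild-type glands and split the PRA transgenic glands. At its brightest probe, A_51_P300709 (chr4:147968433-147968492), wild-type arrays had -1.45, -1.41 and -1.34, and PRA transgenic arrays had -1.31, -0.82, -0.88 and -1.44. Replicates 2 and 3 lay above every wild-type array, replicate 4 lay within the wild-type range and replicate 1 just above it. The difference was 0.29 (SE 0.18, 95% interval -0.14 to 0.72, adjusted p = 0.695 in limma).

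The other Srm probes, printed above, showed that split again. At A_55_P2002376 wild-type arrays lay between -1.30 and -1.22, and PRA transgenic arrays read -1.42, -0.76, -0.73 and -1.37. At A_66_P113076 wild-type arrays lay between -1.37 and -1.28, and PRA transgenic arrays read -1.39, -0.71, -0.77 and -1.37. Replicates 2 and 3 of the PRA transgenic group were thus the highest 2 arrays at all 3 Srm probes and at both Odc1 probes. Probes of 1 gene read the same RNA and are not replicates. Their log2 fold changes were 0.20 (SE 0.21, adjusted p = 0.822 in limma) and 0.27 (SE 0.21, adjusted p = 0.751).

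A list of 8 proliferation genes had its highest PRA transgenic levels on those same arrays. Its summed Cy5 signal, in multiples of each array's 75th percentile, was 13.3, 29.6, 22.7 and 17.9 on PRA transgenic replicates 1 to 4, and 17.1, 12.2 and 41.1 on wild-type replicates 1 to 3. Wild-type replicate 3 had the highest level of all. The brightest Srm probe read -1.34 there, the highest of the wild-type arrays but below PRA transgenic replicates 2 and 3. Wild-type replicate 3 was likewise the highest wild-type array at the other Srm probes and at both Odc1 probes. The part of proliferating cells in the Odc1 and Srm values was not tested.

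Sms, the X-linked gene of spermine synthase, was read by 3 probes, of which none passed the test. At A_51_P457259 (chrX:153883706-153883765) wild-type arrays had -2.31, -2.85 and -2.55, and PRA transgenic arrays -3.04, -2.56, -2.75 and -2.89. The genotypes differed by -0.24 (SE 0.18, 95% interval -0.66 to 0.18, adjusted p = 0.744 in limma). At A_55_P2025911 it was -0.13 (SE 0.19) and at A_55_P2115995 it was 0.06 (SE 0.18). The genotypes overlapped at all 3 probes. With wild-type replicate 2 left out, A_55_P2025911 gave -0.33 and A_55_P2115995 turned to -0.14, and the genotypes no longer overlapped at either. Fewer arrays overlap less often by construction. At A_55_P2025911 the Cy3 reference differed by -0.18, beside a Cy5 difference of -0.32. Outside the rule stood A_66_P127958, a spermine synthase probe named by an Ensembl transcript, whose position overlaps that of A_55_P2115995. It gave -0.10 (SE 0.18), and the genotypes overlapped. Another such probe, A_52_P545192, was not kept.

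Amd1 encodes S-adenosylmethionine decarboxylase, which supplies the aminopropyl groups. The 4 probes named Amd2, a close copy of Amd1, all list a RefSeq transcript of Amd1 as well, so they cannot separate the genes and stood outside the rule. At the brightest, A_55_P2014506 (chr10:40007295-40007354), wild-type arrays had 0.43, -0.35 and -0.13, and PRA transgenic arrays 0.61, 0.04, 0.48 and -0.46. Both genotypes spread over most of the range. Its log2 fold change was 0.18 (SE 0.31, 95% interval -0.54 to 0.90, adjusted p = 0.907 in limma). The other 3 had log2 fold changes of 0.04 (A_55_P2762075), -0.05 (A_55_P2014511) and 0.21 (A_55_P2745572).

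No probe of the regulators of ornithine decarboxylase passed the test. Oaz1, the gene of the main antizyme, had log2 ratios of -0.14, -0.25 and -0.15 in wild-type and -0.11, -0.09, -0.02 and -0.16 in PRA transgenic glands. With a log2 fold change of 0.09 (SE 0.10) its 95% interval, from -0.16 to 0.33, was the narrowest of the 20 probes and held no change as large as 1.5-fold. Antizyme is controlled by a frameshift during its translation, which transcript levels do not show.

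Oaz2, the second antizyme gene, was read by 3 kept probes of differing direction. The brightest, A_55_P1993599 (chr9:65538045-65538104), had 1.03, 1.26 and 0.97 in wild-type and 1.05, 0.73, 0.87 and 0.85 in PRA transgenic glands. Its log2 fold change was -0.21 (SE 0.13, 95% interval -0.53 to 0.10, adjusted p = 0.692 in limma). At A_52_P654130 (chr9:65537593-65537652) it was -0.02 (SE 0.11), a value near 0 that turned positive under several settings, and at the splice-junction probe A_52_P90289 it was 0.19 (SE 0.14). The genotypes overlapped at each probe, and none passed the test.

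Azin1, the antizyme inhibitor, was read by 1 probe (A_55_P2902743, chr15:38419652-38419711). Wild-type arrays had -1.38, -1.28 and -1.35, and PRA transgenic arrays -1.08, -1.20, -0.95 and -1.41. Replicates 1, 2 and 3 of the PRA transgenic group lay above every wild-type array, and replicate 4 lay below them all. The genotypes differed by 0.18 (SE 0.14, 95% interval -0.15 to 0.50, adjusted p = 0.76 in limma).

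Sat1, the X-linked gene of the acetyltransferase that marks spermidine and spermine for export or oxidation, held the only member probe with a lower level in PRA transgenic glands at an unadjusted p under 0.05. At its brightest probe, A_55_P2714414 (chrX:151647849-151647908), wild-type arrays had 1.10, 0.88 and 1.25, and PRA transgenic arrays 0.31, 0.69, 0.19 and 0.76. All 4 PRA transgenic arrays lay below all 3 wild-type arrays. The means were 1.08 ± 0.18 (SD, n = 3) and 0.49 ± 0.28 (SD, n = 4). The difference of -0.59 on the log2 scale (SE 0.19, 95% interval -1.03 to -0.15, adjusted p = 0.453 in limma) was a level of 0.665 times that in wild-type. The two-sided exact permutation test gave p = 0.0571. With wild-type replicate 3 left out it was -0.50 (adjusted p = 0.673 in limma) and its unadjusted p was no longer under 0.05.

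In Cy5 alone the same Sat1 probe read 3.14, 3.01 and 3.49 in wild-type and 2.46, 2.83, 2.25 and 2.90 in PRA transgenic glands. The genotypes were separated in this channel as well, with a difference of -0.60 (adjusted p = 0.477 in limma), while the reference changed by -0.01. The second Sat1 probe, A_51_P348494 (chrX:151650691-151650750), read 0.68, 0.62 and 0.76 in wild-type and 0.43, 0.50, 0.24 and 0.67 in PRA transgenic glands, where replicate 4 overlapped the wild-type range. Its log2 fold change was -0.23 (SE 0.13, 95% interval -0.55 to 0.09, adjusted p = 0.669 in limma). In Cy5 alone that probe differed by -0.38 (adjusted p = 0.449 in limma) with no overlap, and its Cy3 reference differed by -0.14 in the same direction. Over the members, Cy5 alone gave 2 probes without overlap, both of Sat1, beside 9.74% of all kept probes, and 3 at an unadjusted p under 0.05, beside 8.88%. In Cy3 alone 3 member probes were at an unadjusted p under 0.05, beside 10.4% of all kept probes, namely A_66_P113076 of Srm, A_55_P2025911 of Sms and A_51_P348494 of Sat1.

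No probe of the oxidases passed the test. Paox, whose enzyme oxidizes acetylated polyamines, was above the reference on all 7 arrays with every probe. At A_51_P180613 (chr7:147320172-147320231) wild-type arrays had 2.20, 1.91 and 1.95, and PRA transgenic arrays 2.39, 1.98, 2.35 and 2.03. Their difference of 0.17 (SE 0.16, 95% interval -0.20 to 0.54, adjusted p = 0.806 in limma) was within the spread between animals. A_55_P2019751 shares 52 bases with that probe and gave 0.12 (SE 0.16), and A_55_P2749859, printed above, gave 0.24 (SE 0.16).

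Smox, encoding spermine oxidase, had log2 ratios of -0.57, -1.02 and -0.70 in wild-type and -0.98, -0.49, -0.95 and -0.99 in PRA transgenic glands at A_51_P372826 (chr2:131350711-131350770). PRA transgenic replicate 2 was the highest array and the other PRA transgenic arrays were close together. The genotypes differed by -0.09 (SE 0.18, 95% interval -0.51 to 0.34), and by 0.0098 with wild-type replicate 1 left out. At A_66_P107703 it was -0.04 (SE 0.24) and 0.11 without PRA transgenic replicate 1 or 0.10 without wild-type replicate 3, again with PRA transgenic replicate 2 the highest array.

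**Figure D3:**
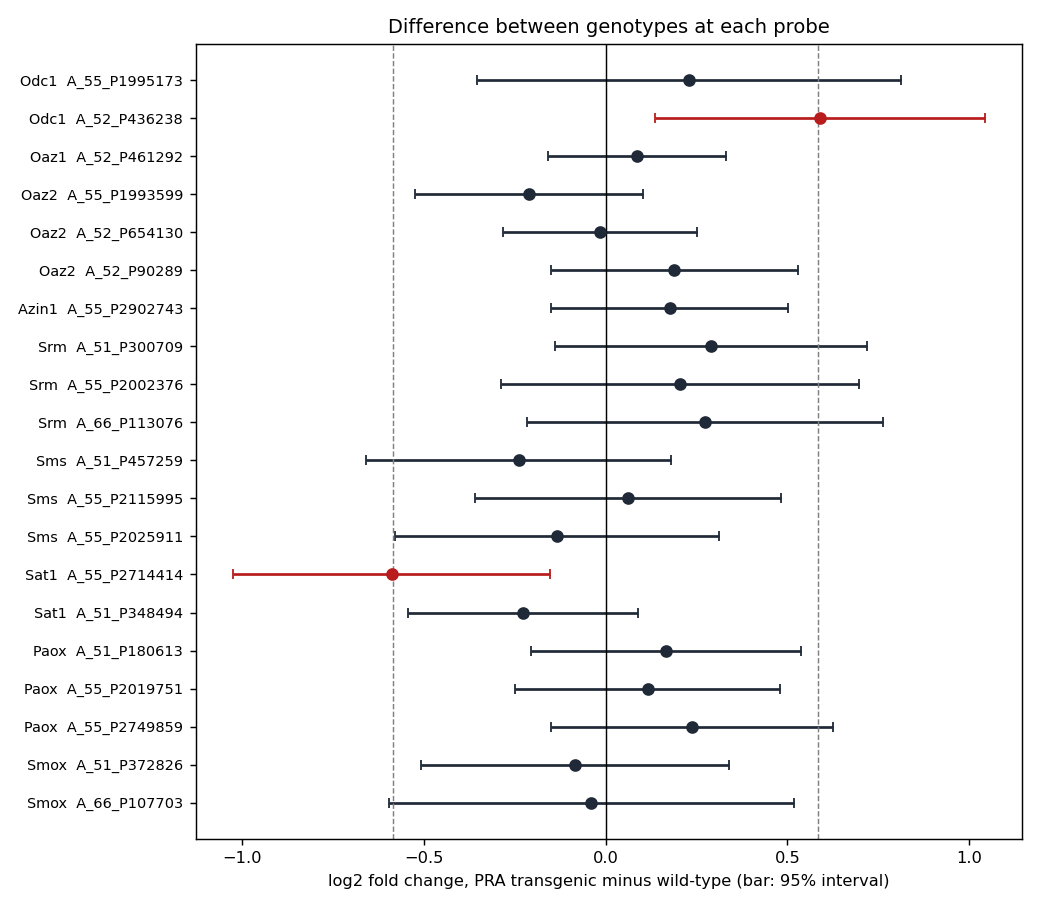
Log2 fold change, PRA transgenic minus wild-type, for each of the 20 kept probes, with the limma 95% interval as a bar and dashed lines at a change of 1.5-fold either way. The intervals of A_52_P436238 of Odc1 and A_55_P2714414 of Sat1, in red, exclude 0 and the other 18 include it.

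Against the cell-line reference most members had 1 sign on every array. All probes of Odc1, Oaz1, Azin1, Srm, Sms and Smox were below the reference on 7 of 7 arrays, and all probes of Sat1 and Paox were above it on 7 of 7. The 3 kept Oaz2 probes were above it on 7, 7 and 6 arrays. These signs include any dye bias.

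By the size of the difference between array patterns, each centered on its own mean over the 7 arrays, the genes most like the brightest Odc1 probe among 16012 named genes were Rrp12, a factor of ribosome assembly, Mars2, the mitochondrial methionyl-tRNA synthetase, and Mrps22, a protein of the mitochondrial ribosome. Their root mean square differences were 0.047, 0.064 and 0.077 on the log2 scale, against a median of 0.41 over all these genes. As the nearest of 16012 over 7 arrays they are close by selection, and a shared control was not tested. A gene with the same level on all arrays would differ by 0.323. Among the members Srm was nearest, at rank 83 with 0.152, then Azin1 at rank 801 with 0.228. Sat1 was farthest, at rank 12581 with 0.583.

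Of 40 further genes around the pathway, 35 had a kept probe and 3 had an unadjusted p under 0.05 at their brightest kept probe, against 9.02% of all kept probes. None passed adjustment in limma, with a lowest adjusted p of 0.428. The median log2 fold change over the 35 was 0.02, as over all kept probes. The 5 without a kept probe were Slc25a15, Mat1a, Oaz3, Satl1 and Atp13a4. Only 1 of the 35 was at an unadjusted p under 0.05 without wild-type replicate 3, without PRA transgenic replicate 2 or without PRA transgenic replicate 3.

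Precursor supply covers enzymes and carriers around arginine and ornithine, beside Azin2, an antizyme inhibitor gene. Azin2 had a log2 fold change of -0.40 (SE 0.30). Of the list's 7 measured genes 1 was lower at an unadjusted p under 0.05 and 0 higher, with a median log2 fold change of -0.19. That gene was Gatm, whose enzyme draws on arginine for creatine synthesis and yields ornithine. Gatm had -0.08, -0.03 and 0.52 in wild-type and -0.50, -0.46, -0.56 and -0.28 in PRA transgenic glands, without overlap. Its log2 fold change was -0.59 (SE 0.18, adjusted p = 0.428 in limma). The largest positive value belonged to Arg1, an arginase, at 0.58 (SE 0.65, adjusted p = 0.843 in limma), where wild-type arrays alone ranged from 2.27 to 5.02. The reference was well above background for Arg1 on 0 of 7 arrays, and the gland channel differed by 0.27 and the reference by -0.30.

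The hypusine pathway turns spermidine into a modified lysine of the translation factor eIF5A. Of its 4 genes 1 was lower at an unadjusted p under 0.05 and 0 higher. Dhps, encoding deoxyhypusine synthase, had -0.71, -0.79 and -0.78 in wild-type and -0.98, -1.15, -1.07 and -0.99 in PRA transgenic glands. The genotypes did not overlap, and both were tightly grouped. Dhps differed by -0.29 (SE 0.11, 95% interval -0.54 to -0.03, adjusted p = 0.504 in limma). Eif5a2, a form of the factor itself, had the largest positive value of the list, 0.03 (SE 0.13).

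The Myc network was included because Odc1 and Srm are textbook targets of Myc. Of its 7 genes 1 was higher at an unadjusted p under 0.05 and 0 lower. Mxd4, a Max partner that opposes Myc, had 1.46, 1.40 and 1.24 in wild-type and 1.55, 1.71, 1.67 and 1.70 in PRA transgenic glands, without overlap. Mxd4 differed by 0.29 (SE 0.11, adjusted p = 0.519 in limma). Myc itself had the largest negative value, -0.59 (SE 0.54, adjusted p = 0.798 in limma), with -1.76, -2.05 and -0.23 in wild-type and -2.50, -1.0, -1.72 and -2.53 in PRA transgenic glands. Wild-type replicate 3 was far above the other wild-type arrays, as for the proliferation genes.

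The remaining lists held no gene at an unadjusted p under 0.05. Methyl donor and methionine salvage genes had a median of 0.07 over 8 genes, and the salvage enzymes recycle the by-product of aminopropyl transfer. The list ran from Mat2a at -0.32 (SE 0.21), the methionine adenosyltransferase, to Mri1 at 0.18 (SE 0.14), an enzyme of the salvage route. Transport genes had a median of 0.0082 over 7, from Slc22a3, an organic cation transporter, at -0.52 (SE 0.25, adjusted p = 0.599 in limma) to Atp13a3, a polyamine-transporting ATPase, at 0.14 (SE 0.22). Of the relatives of the members, Sat2 had 0.17 (SE 0.16). The brightest probe named Amd2, given above and not separable from Amd1, had 0.18 (SE 0.31).

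**Figure D4:**
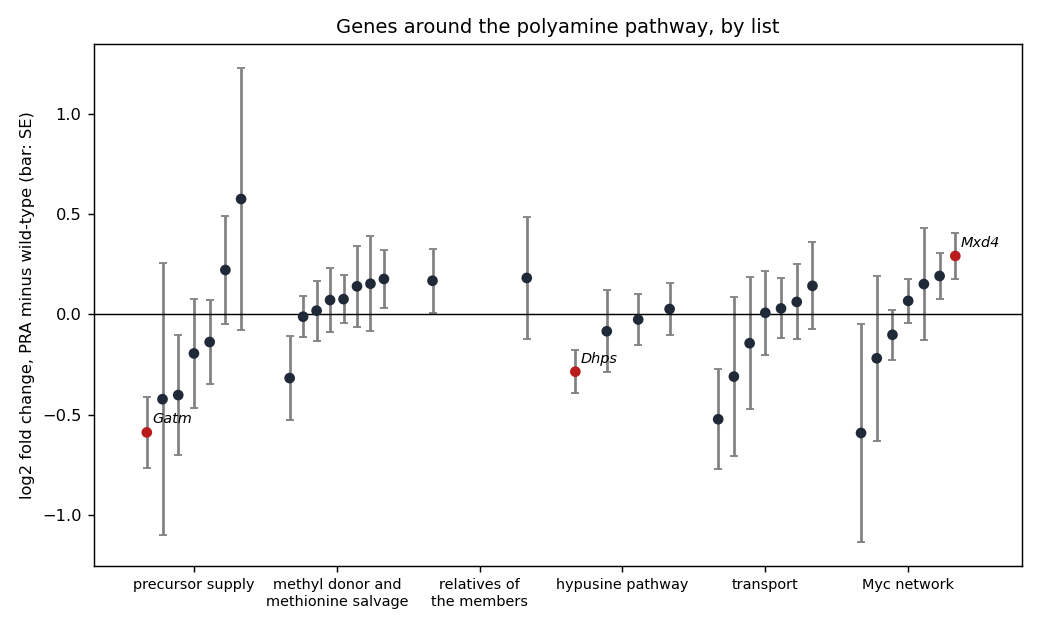
Log2 fold change, PRA transgenic minus wild-type, of the 35 measured genes around the pathway, grouped by list, with bars of 1 SE. Gatm, Dhps and Mxd4, in red, have an unadjusted p under 0.05, and the rest lie on either side of 0.

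Promoter sequence is shown for the genes of the called probes, Odc1 and Sat1, in the 250 bases before the transcription start. It is the RefSeq sequence of GRCm38.p6, a build other than that of the probes, and 8 of the 10 genes matched with 10 promoters in all. Srm and Azin1 had no match and were not searched, and neither was sequence beyond these 250 bases. Capitals mark 3 motifs, each searched on both strands. TGTTCT is the core of a steroid receptor element that the progesterone receptor can bind. The E-box CACGTG can be bound by Myc, and the GC box GGGCGG by factors of the Sp family.
Odc1, plus strand, chr12:17544623-17544872: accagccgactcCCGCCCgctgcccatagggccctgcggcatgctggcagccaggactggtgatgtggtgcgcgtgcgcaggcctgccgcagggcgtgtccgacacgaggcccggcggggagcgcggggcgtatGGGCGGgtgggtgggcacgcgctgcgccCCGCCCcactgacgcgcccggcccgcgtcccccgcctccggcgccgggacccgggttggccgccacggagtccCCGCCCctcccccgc
Sat1, minus strand, chrX:155216450-155216699: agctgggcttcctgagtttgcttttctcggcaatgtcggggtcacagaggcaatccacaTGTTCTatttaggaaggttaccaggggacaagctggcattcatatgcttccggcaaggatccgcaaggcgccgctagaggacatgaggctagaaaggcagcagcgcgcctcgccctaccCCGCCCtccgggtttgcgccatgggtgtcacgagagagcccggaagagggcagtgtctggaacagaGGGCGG
The window of Odc1 held 4 GC boxes and that of Sat1 held 2, and Sat1 also held TGTTCT. That hexamer was in 16.1% of all 32851 promoters searched over this length and in those of Sat1 and Oaz2 among the members. The E-box was in 6.02% of all promoters and in 1 of the members' 10, that of Sms, and the GC box was in 32.7% of all and in 8 of the members' 10. A match is a description of these letters and not of a bound site.

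Marker lists of the gland's cell types served as a check of the tissue, and the summed Cy5 of all 11 lists overlapped between the genotypes. In multiples of the array's 75th percentile, 8 luminal epithelial genes summed to 129.6 to 242 in wild-type and 117 to 203 in PRA transgenic glands, and 6 white adipocyte genes to 997 to 1319.6 and 819.6 to 1467. The same sums were 50.8 to 82.6 and 66.6 to 78.2 for 6 basal epithelial genes, 29.7 to 61.8 and 23.2 to 68.1 for 3 of 4 brown adipocyte genes, 8.12 to 14.7 and 10.3 to 11.8 for 5 endothelial genes, 156 to 168 and 95.5 to 264 for 6 macrophage genes, and 412 to 584 and 419 to 586 for 5 fibroblast genes. Wild-type replicate 1 had high lymphocyte levels, with a T cell range of 4.23 to 16.7 in wild-type and 4.60 to 5.84 in PRA transgenic glands over 6 of 6 genes, and a B cell range of 0.735 to 7.84 and 0.749 to 1.32 over 4 of 5. Skeletal muscle ranged from 8.11 to 122 and from 9.25 to 46.8 over 6 of 7 genes.

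No marker passed adjustment in limma, and the single markers below stand beside 9.02% of all kept probes at an unadjusted p under 0.05. The log2 fold change was below 0 for all 6 T cell genes and all 5 fibroblast genes and above 0 for all 6 white adipocyte genes, although in Cy5 alone 5 of those 6 adipocyte genes were below 0. At an unadjusted p under 0.05 were Cd8a, a T cell coreceptor, at -2.71 (SE 0.88, adjusted p = 0.462 in limma), Col3a1, a fibrillar collagen, at -0.53 (SE 0.17, adjusted p = 0.454), and Cd163, a macrophage scavenger receptor, at 0.47 (SE 0.17, adjusted p = 0.491). The genotypes did not overlap for these genes or for Plin1, the lipid droplet coat protein perilipin, at 0.32 (SE 0.14, adjusted p = 0.58). Non-overlap held for 9.93% of all kept probes. The reference was well above background on 0 arrays for Cd8a and 4 for Cd163. Cy5 was well above background for Cd8a on only 4 arrays. Part of the Cd8a values therefore lay near the floor in both dyes, which limits the size of its difference and its lack of overlap. In Cy5 alone Cd163 differed by 0.03 and Plin1 by -0.08. Cy5 was well above background for 62.7% to 66.2% of probes on wild-type arrays and 56.6% to 60.2% on PRA transgenic arrays, and Cy3 for 53.2% to 54.0% and 47.2% to 50.6%. The part of these differences in the values of the members was not tested.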

How the data were processed

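Gene expression was measured on Agilent 2-color arrays, 3 wild-type and 4 PRA transgenic, mapped from the sample labels. The authors deposited per-array files from Agilent Feature Extraction (version 11.5.1.1 per the file headers, 12.0 per the submitters' processing notes), whose processed intensity values were background-subtracted and dye-normalized. The authors also deposited a table of log2 ratios made in GeneSpring, centered per probe. Dim signals carry surrogate values, which compress small ratios. Control and outlier spots were left out, spots of a probe were averaged, and 22321 dim probes were not kept. The genotypes were compared in R 4.3.3 with limma 3.58.1 (lmFit, eBayes, Benjamini-Hochberg adjustment), and the steps were tested on simulated data. The number of arrays limits the precision. The members, lists and tests were chosen with earlier results of these data known. All members were named with every probe, and of each pathway list the genes at an unadjusted p under 0.05 and the largest rise and fall. The brightest kept probe in Cy5 stood for a gene. The alternatives, 18 in all, changed background correction (normexp, offset 50, then loess), source table, filter, channel, scaling, test, intensity trend, weights and replicate block, and left out each array in turn.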

Additional observations from a re-analysis of the deposited data

Results flagged for a closer look

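On A_51_P372826 of Smox, PRA transgenic replicate 2 stood apart from the rest of its group, with a log2 ratio of -0.49 against -0.99 to -0.95 on the other PRA transgenic arrays. Its gap to the nearest array was 0.922 of the group's whole range. On A_51_P500344 of Mat2a the same array had 0.28 against 0.70 to 0.77, a gap of 0.847 of the range. Of 36 probes examined in this way, chance alone flags about 1 in 20, or 1.8. These 36 did not cover all member and pathway probes, so the flags are not a full list. On A_51_P188211 of Max, which was not flagged, PRA transgenic replicate 1 had 0.29 against 0.45 to 0.47 on the other PRA transgenic arrays.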

How the results depend on the processing

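No member probe had an adjusted p under 0.05 under any of the 18 alternatives. Between 12 and 14 member probes were higher in PRA transgenic glands. The count at an unadjusted p under 0.05 and 1.5-fold, 2 in the report, was 1 with normexp and loess, 1 with Cy5 alone and 1 with each array centered on its median, where Odc1 kept an unadjusted p under 0.05 but fell under 1.5-fold, and it ranged from 0 to 2 with 1 array left out. The count of members without overlap, 2 in the report, ranged from 2 to 7 with 1 array left out. It was 4 without wild-type replicate 1, 7 without wild-type replicate 2 and 6 without PRA transgenic replicate 4. Fewer arrays overlap less often by construction. The share over all kept probes is not given for these settings, so the counts cannot be read as an excess among the members. The log2 fold change of A_52_P436238 of Odc1 ranged from 0.48 to 0.71 and that of A_55_P2714414 of Sat1 from -0.69 to -0.49. The unadjusted p of each was over 0.05 under 1 alternative, without wild-type replicate 2 for Odc1 and without wild-type replicate 3 for Sat1. Smox, at -0.09, ranged from -0.21 to 0.0098 with 1 array left out and turned positive without wild-type replicate 1, and the cause was not tested. The probes near 0 turned as well. A_52_P654130 of Oaz2, at -0.02, gave 0.028 with Cy5 alone and 0.00048 with the block, and -0.093 to 0.023 with 1 array left out. A_66_P107703 of Smox, at -0.04, gave 0.045 with Cy5 alone and 0.047 with array weights, and -0.20 to 0.11 with 1 array left out. A_55_P2115995 of Sms, at 0.06, ran from -0.14 to 0.17 with 1 array left out. The count of other pathway genes at an unadjusted p under 0.05, 3 in the report, ranged from 1 to 4 with 1 array left out. The replicate number did not pair the samples, since same-numbered arrays correlated at 0.0997, -0.297 and 0.0362 in their deviations from the group means. PRA transgenic replicate 4 had no partner, so the block takes it out of the comparison. With the replicate number as a block the pathway count was 1 and the member count at p under 0.05 and 1.5-fold stayed at 2.
Over the 34284 kept probes the count at p under 0.05 and 1.5-fold was 1551 (4.52%). It was 328 with normexp and loess, 995 with the methods' t-test and 2443 with the block, beside 2333 without PRA transgenic replicate 4 and no block. Other filters changed the number tested, with 3367 of 56605 probes (5.95%) without the filter and 468 of 24649 (1.90%) with both dyes required. Ratios of probes near background are limited by surrogate values, while all 20 kept member probes were well above background in both dyes on 7 arrays.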
